A study of Mus musculus with 9 samples.

Results

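Liver RNA of mice given glycyrrhizic acid together with gefitinib was compared with liver RNA of mice given gefitinib alone. The comparison uses 6 of the 9 libraries of the series, 3 from the combined treatment (glycyrrhizic acid+gefitinib) and 3 from gefitinib, chosen by their treatment labels and matched to the columns of the deposited gene table by name. The 3 saline libraries enter as a common source of the estimated spread, and their levels are set beside the others without a test. All groups were sampled at 16 days, and both of the groups compared received gefitinib. The sources used here give no doses, strain, sex or age. All 27945 genes of the table belong to the comparison, and the 18113 with enough counts were tested. Nothing in the labels says whether the libraries within a group are separate animals, and the p-values therefore describe only how these samples vary, which may be technical variation.

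Gefitinib blocks the kinase activity of EGFR, the receptor of epidermal growth factor, which passes growth signals through the RAS and MAP kinase cascade, and liver injury is one of its known side effects in patients. Glycyrrhizic acid is the main triterpenoid saponin of licorice root and is used in some countries as a treatment of liver disease. It is cut to glycyrrhetinic acid, an inhibitor of the 11β-hydroxysteroid dehydrogenases, the enzymes that interconvert active and inactive glucocorticoids. In the liver, hepatocytes hold the genes of bile acid synthesis, fatty acid oxidation and amino acid breakdown. Macrophages, stellate cells and sinusoidal endothelial cells make up much of the rest of the tissue.

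Total counts lay between 56440871 and 60665156 per library over the series. Levels are given as CPM, the count of a gene relative to a library size that includes the TMM scaling factor, and folds are group ratios from edgeR's fit, with p-values from its quasi-likelihood test adjusted by Benjamini-Hochberg over all tested genes. A gene was called at an adjusted p under 0.05. The TMM factors were 1.14, 1.08 and 1.05 in the combined libraries, against 0.949, 0.998 and 0.970 in the gefitinib libraries and 0.978, 0.905 and 0.950 in the saline libraries, so the scaling itself differed between the groups compared. Albumin, the main product of hepatocytes, took 5.32, 5.14 and 5.82% of the counts in the combined libraries, against 5.72, 5.84 and 5.69% in the gefitinib libraries. On the first principal component of log2 CPM of the 6 libraries, with 36.4% of the variance, the combined libraries lay between 50.3 and 59.9 and the gefitinib libraries between -63.1 and -46.6. On the second, with 18.5%, gefitinib 1 lay at 77.0 and gefitinib 2 and 3 at -37.3 and -42.1.

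Skeletal muscle transcripts were present in all combined libraries and in gefitinib 1. The 30 muscle genes in the table, of which 28 were tested, summed to 276, 234 and 254 CPM in the combined libraries, against 318, 35.7 and 27.1 CPM in the gefitinib libraries and 57.8, 40.6 and 40.1 CPM in the saline libraries. Myh4, the myosin heavy chain of fast fibres, had 53.4, 40.1 and 36.1 CPM in the combined libraries and 64.5, 0 and 0 CPM in the gefitinib libraries, and the defining markers Tnnt3, Tnnc2, Myl1 and Myh2 were at 0 in gefitinib 2 and 3. None of the 28 muscle genes was called by edgeR, with 1 at an unadjusted p under 0.05, and DESeq2 called none, limma 1 or 2 depending on the pseudocount, but edgeR called 20 higher without gefitinib 1. Their part in the results was not tested, and most list counts are given beside the count when the presence of muscle RNA is a term of the fit (the muscle term). The term marks the combined libraries and gefitinib 1 as carrying muscle RNA, so that the contrast then sets the combined libraries against gefitinib 1 alone.

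Of the 18113 tested genes, 1644 (9.08%) were called, 899 higher (4.96%) and 745 lower (4.11%) in the combined group than with gefitinib, and 4403 had an unadjusted p under 0.05. Genes higher in the combined group were low with gefitinib, with a median of 8.26 CPM in the gefitinib group, and had a median fold of 2.27. Of them, 178 were at least 4-fold and 63 at least 8-fold higher. Genes lower in the combined group were more abundant, with a median of 42.7 CPM in the gefitinib group and a median fold of 1.68, and 47 were at least 4-fold and 20 at least 8-fold lower. Of the 121 genes at 1000 CPM or more on average over all 9 libraries, 19 were lower and 0 higher, while of the 5313 genes between 1 and 10 CPM 119 were lower and 368 higher. The count of lower abundant genes was not stable, with 5 without gefitinib 1, 7 without combined 1, 9 without gefitinib 2 or gefitinib 3, 10 without combined 2, 5 with the muscle term or limma, 9 with the replicate number as a block and 11 with no filter. Scaling by library size gave 12 lower and 5 higher, and DESeq2 43 lower and 4 higher. The 899 higher genes summed to 47291, 42911 and 45228 CPM in the combined libraries, against 20723, 22388 and 21560 CPM in the gefitinib libraries, and to 20724, 20818 and 20690 CPM in the saline libraries, whose levels are no part of the contrast. The 745 lower genes summed to 76905, 90821 and 89923 CPM in the combined libraries, against 149046, 135866 and 135602 CPM in the gefitinib libraries, and to 148756, 152107 and 155287 CPM in the saline libraries. The saline sums thus lay near the gefitinib sums in both directions, but such sums mostly follow the abundant genes. Single genes could differ, as the saline and gefitinib levels of Zbtb16, Cdkn1a and Cyp7a1 below show.

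**Figure D1:**
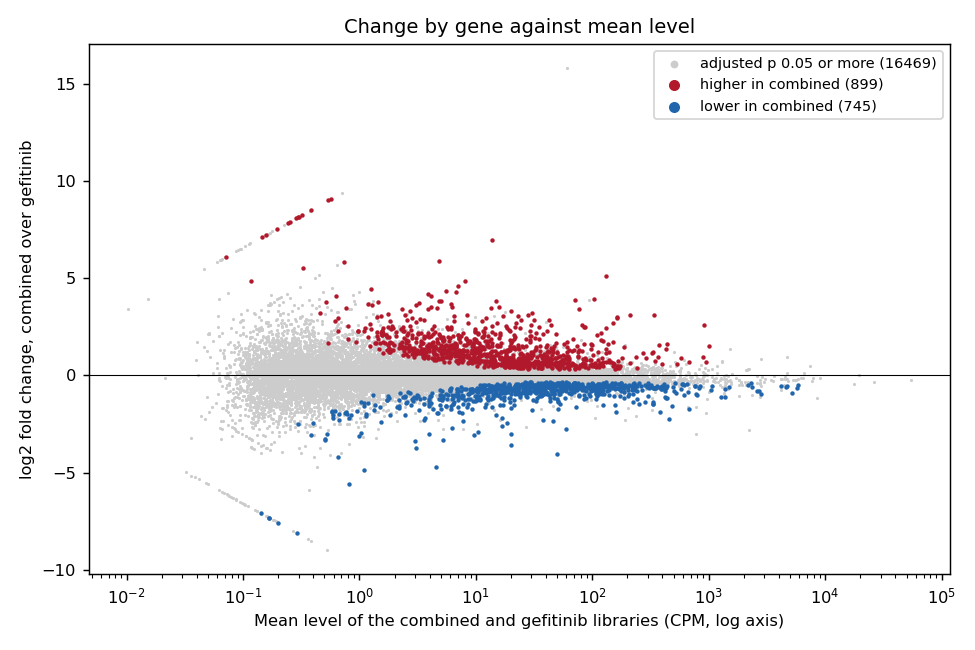
Each point is 1 of the 18113 tested genes, with its mean level over the 6 libraries in CPM on a log axis and its log2 fold change, combined over gefitinib, on the other axis. The 899 genes called higher lie mostly at low and middle levels and reach larger changes, and of the called genes at 1000 CPM or more on this axis 18 lie below 0 and 1, Tat, lies above it.

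The number and the split of the calls depended on the settings. With scaling by library size alone 1893 genes were called, 1513 higher and 380 lower, and the median log2 fold change of all tested genes was 0.17, against 0.01 with TMM. limma on log2(FPKM + 1) called 1851 higher and 406 lower, with a median over all genes of 0.07, and on log2(FPKM + 0.1) 1664 and 400, with a median of 0.15. With the muscle term 516 genes were called, 294 higher and 222 lower, and 445 of them were among the 1644. Leaving out 1 library gave 751 to 1497 called genes, with the lowest count, 751, without gefitinib 1, then 859 without gefitinib 3, 867 without combined 1 and 901 without combined 3. None of the 1644 genes changed sign under any of the 20 alternatives in which it was tested. Of them, 348 kept their call under every alternative that tested them, 203 higher and 145 lower. A gene said below to be called under every alternative run was called under each one that tested it. The filter of at least 5 FPKM tested only 137 of the 182 called genes chosen by the naming rule.

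List counts moved too. Of the 27 lists with at least 3 higher genes, 22 held fewer by more than 1.5 times with the muscle term, 13 without gefitinib 1, 11 with a mean of at least 5 FPKM and 10 without combined 3, while DESeq2 called more by that factor in 5 and limma on log2(FPKM + 1) in 6. Of the 16 lists with at least 3 lower genes, 14 held fewer with the muscle term, 12 without combined 1 or gefitinib 1, 11 without gefitinib 3 or with limma on log2(FPKM + 1), 9 with the replicate block and 7 with scaling by library size, while DESeq2 called more in 11.

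**Figure D2:**
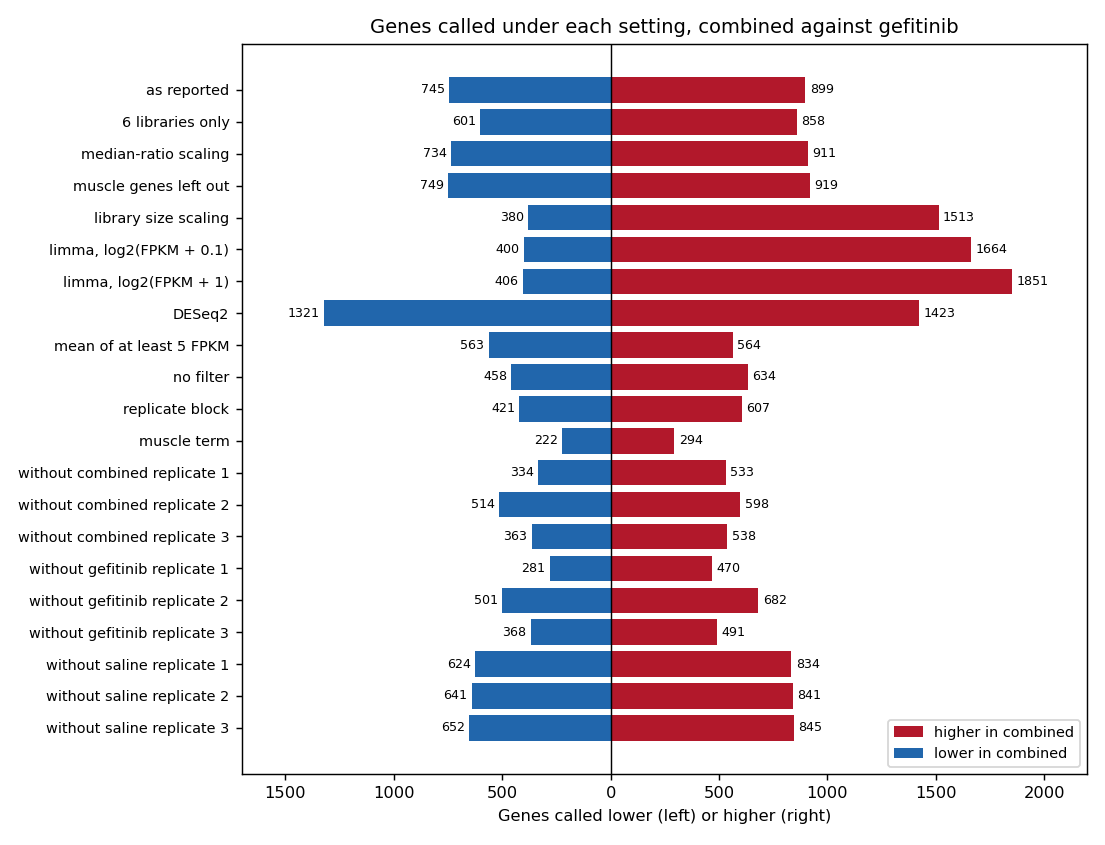
Bars give the number of genes called higher in the combined group (right) and lower (left) under each setting. The counts run from 516 with the muscle term to 2744 with DESeq2, and the lower calls drop from 745 to 380 when libraries are scaled by their size alone.

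By gene list, the shares called stood furthest above those of all genes among the cytoskeleton, macrophage and immediate early genes on the higher side, and among red blood cell, periportal, sinusoidal, transcription factor and fatty acid oxidation genes on the lower side. All counts below are to be read against 4.96% higher and 4.11% lower over all tested genes. The lists were written with earlier results of these data known, and some genes stand in several lists. The order of the lists was therefore not tested.

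**Figure D3:**
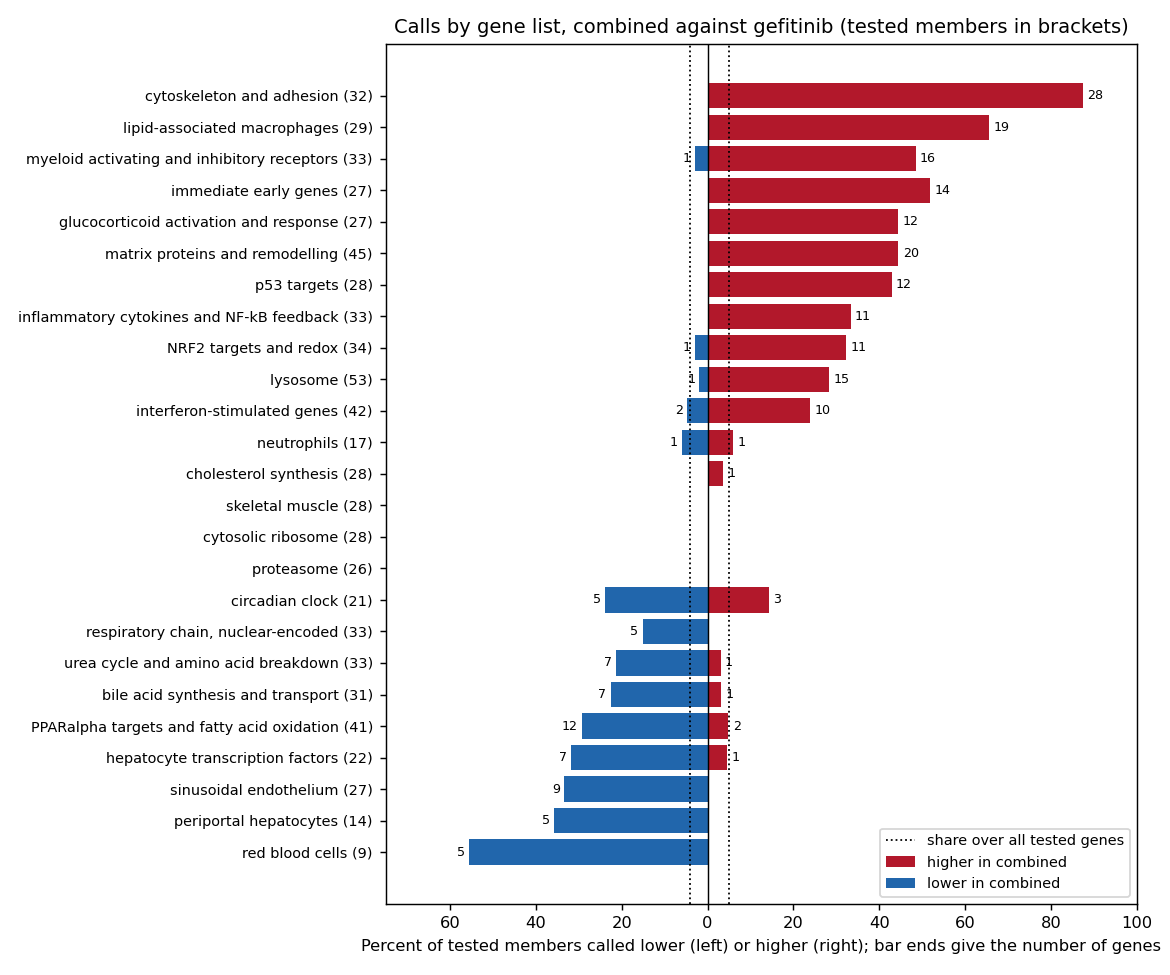
For each list, bars give the percent of its tested members called higher in the combined group (right) or lower (left), with the number of genes at the bar's end and the number tested in brackets. Dotted lines mark the shares over all tested genes, 4.96% and 4.11%, and the longest bar is that of the cytoskeleton and adhesion genes, 28 of 32.

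Macrophage genes of the lipid-associated kind, a state of liver macrophages that take up lipid and dying cells, were mostly higher in the combined group. Of the 29 tested genes of this list 19 rose, 0 fell and 10 did not pass, with a median log2 fold change of 1.37. Not called were, among others, Spp1 (1.43-fold, adjusted p = 0.411), Fabp5 (1.49-fold, 0.658) and Cd36 (2.12-fold, 0.160). Apoe, also not called, was 1.38-fold lower without overlap (adjusted p = 0.0542). In bulk tissue, fewer cells of a type and less RNA per cell cannot be told apart, and so it is for more. Gpnmb (ENSMUSG00000029816, chromosome 6, 49036546 to 49070929, GRCm38), a glycoprotein of phagocytic macrophages, had 265, 316 and 181 CPM in the combined libraries, against 6.39, 10.1 and 5.95 CPM in the gefitinib libraries and 1.88, 1.42 and 1.38 CPM in the saline libraries. It was 34.04-fold higher with the combined treatment, a log2 difference of 5.09 ± 0.33 (SE, n = 3 libraries per group, adjusted p = 0.000130). Lgals3, galectin 3, a lectin secreted by macrophages, had 137, 158 and 125 CPM in the combined libraries, against 11.7, 17.4 and 9.603 CPM in the gefitinib libraries and 3.43, 2.15 and 3.82 CPM in the saline libraries (10.8-fold, adjusted p = 0.000241). Both genes were several times higher in every combined library than in any gefitinib library. Capg, an actin-capping protein of macrophages, rose 8.41-fold, and Atp6v0d2, a macrophage and osteoclast subunit of the proton pump that acidifies lysosomes, rose 5.13-fold (adjusted p = 0.000200 and 0.000341). Itgax, an integrin of dendritic cells and activated macrophages, had 26.3, 28.9 and 19.3 CPM in the combined libraries and 2.54, 2.46 and 1.71 CPM in the gefitinib libraries. Gpnmb, Lgals3, Capg and Atp6v0d2 were called under every alternative run, Itgax under every one except the muscle term. The list held 15 to 19 higher genes when a library was left out and 11 with the muscle term.

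Kupffer cell genes, which mark the resident macrophages, did not move as a group. Of 20 tested, Cd68 and Hmox1 were higher, Slc40a1 was lower and 17 did not pass. Cd68, a lysosomal protein of all macrophages, had 46.2, 59.1 and 57.6 CPM in the combined libraries, against 12.9, 20.02 and 11.9 CPM in the gefitinib libraries. Clec4f, the lectin that defines Kupffer cells in mice, had 73.8, 90.1 and 171 CPM in the combined libraries, against 117, 137 and 103 CPM in the gefitinib libraries and 101, 73.7 and 132 CPM in the saline libraries (adjusted p = 0.895), and the ranges overlapped. Slc40a1, ferroportin, the iron exporter of macrophages, fell 1.85-fold, with 85.5, 72.7 and 98.8 CPM in the combined libraries and 186, 138 and 152 CPM in the gefitinib libraries. Of the 22 monocyte and dendritic cell genes, 5 rose and 0 fell, among them Lyz2, lysozyme of myeloid cells, with 230.4, 327 and 226 CPM in the combined libraries and 32.5, 61.2 and 27.5 CPM in the gefitinib libraries. Cd68, Slc40a1 and Lyz2 were called under every alternative run. With the muscle term 1 Kupffer cell gene was higher and 1 lower, and 2 monocyte and dendritic cell genes were higher, against 9 with DESeq2.

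Many receptors by which myeloid cells sense antibodies, glycans and lipids were higher too. Of 33 tested receptors and adaptors 16 rose and 1 fell. Clec7a, the receptor of fungal β-glucan, had 34.03, 38.5 and 43.1 CPM in the combined libraries, against 6.79, 7.07 and 4.29 CPM in the gefitinib libraries. Syk, the kinase that these receptors signal through, had 26.04, 23.8 and 24.1 CPM in the combined libraries and 11.9, 11.5 and 8.17 CPM in the gefitinib libraries, and Lilr4b, an inhibitory receptor, had 70.1, 68.1 and 83.3 CPM in combined and 21.8, 22.4 and 24.4 CPM in gefitinib libraries. Lilr4b overlaps another annotated gene on its strand and has close paralogs, so its reads are uncertain. The receptors were highest in combined 3 for 11 of the 16. Higher receptors numbered 9 without combined 3, gefitinib 1 or gefitinib 3, and 4 with the muscle term.

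Lysosomal genes were higher in part. Of 53 tested genes 15 rose and 1 fell, while the median log2 fold change was only 0.18. Ctsd, the aspartic protease cathepsin D, had 742, 780.4 and 713 CPM in the combined libraries, against 428, 391 and 386 CPM in the gefitinib libraries and 294, 278 and 281 CPM in the saline libraries (1.86-fold, adjusted p = 0.000921). Ctss, a cysteine protease of antigen-presenting cells, rose 6.096-fold to 130.4, 141 and 151 CPM in the combined libraries, against 22.2, 28.7 and 18.3 CPM in the gefitinib libraries. Ctsf, another cysteine cathepsin, went the other way, with 21.4, 21.8 and 21.2 CPM in the combined libraries and 38.9, 35.02 and 32.3 CPM in the gefitinib libraries. Psap, the precursor of the saposins that help break down sphingolipids, had 862, 876 and 764 CPM in the combined libraries and 569, 515 and 471 CPM in the gefitinib libraries. Ctsd, Ctss and Ctsf were called under every alternative run, Psap under every one except the muscle term. The count of higher lysosomal genes stayed at 14 to 16 with any library left out, and was 9 with the muscle term and 21 with scaling by library size.

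**Figure D4:**
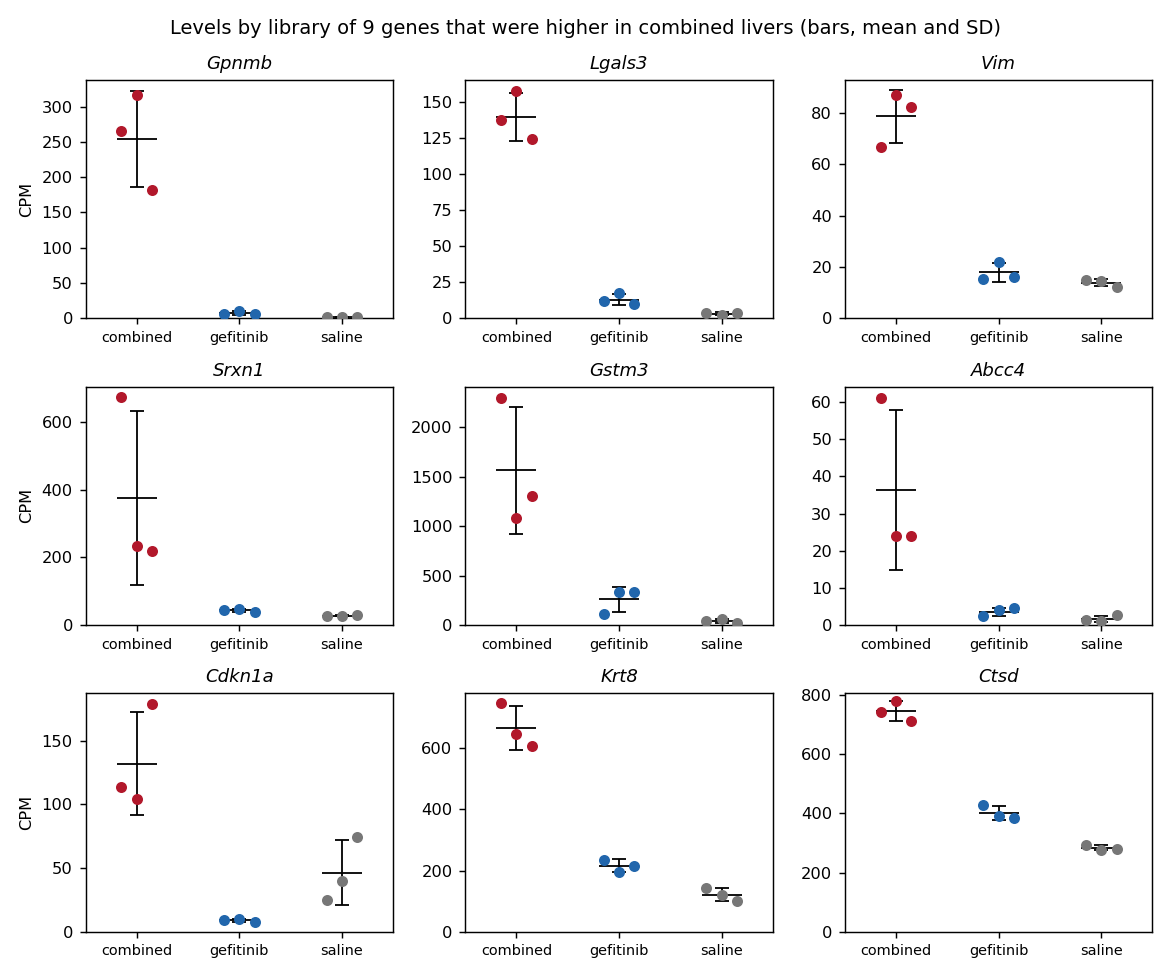
Points are the 3 libraries of the combined, gefitinib and saline groups and lines their means, in CPM, for 9 genes called higher in the combined group. In each panel all combined libraries lie above all gefitinib libraries, and Srxn1, Gstm3 and Abcc4 stand highest in combined 1.

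The promoters of 2 of these genes, and of 3 described further on, show the letters searched for in the promoters of the named genes. The sequences are RefSeq's for GRCm38.p6 and run from 250 bases before to 50 bases after the transcription start, with matches in capitals. The Gpnmb promoter (chr6:49036268-49036567, plus strand) holds 1 match to the AP-1 letters TGANTCA, 8 bases after the start, which FOS and JUN family proteins are known to bind. The Ctsd promoter (chr7:142387778-142388077, minus strand) holds the E-box letters CACGTG at 245 and 98 bases before the start, and the core letters of the antioxidant response element, TGACNNNGC, at 62 and 47 bases before it.
Gpnmb: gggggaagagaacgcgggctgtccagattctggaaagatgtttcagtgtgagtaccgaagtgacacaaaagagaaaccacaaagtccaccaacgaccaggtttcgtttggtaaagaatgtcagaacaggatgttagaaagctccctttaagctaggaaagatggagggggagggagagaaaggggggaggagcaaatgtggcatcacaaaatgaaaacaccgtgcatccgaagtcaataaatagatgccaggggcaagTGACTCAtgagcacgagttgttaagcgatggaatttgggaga
Ctsd: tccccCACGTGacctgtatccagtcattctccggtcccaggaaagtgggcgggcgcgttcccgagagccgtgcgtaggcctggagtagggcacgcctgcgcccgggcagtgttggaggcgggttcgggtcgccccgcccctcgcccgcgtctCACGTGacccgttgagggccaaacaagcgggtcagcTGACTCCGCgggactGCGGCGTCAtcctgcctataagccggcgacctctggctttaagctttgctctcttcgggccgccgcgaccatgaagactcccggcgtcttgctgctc

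Genes of the cytoskeleton and of cell adhesion gave the largest share of calls of all lists, which were written with earlier results known. Lgals3, Anxa2 and Anxa5 are also among the higher genes of the lipid-associated macrophage list, so the counts of these lists are not separate. Of 32 tested genes 28 rose and 0 fell, with a median log2 fold change of 1.21. Vim, vimentin, the intermediate filament of mesenchymal cells and leukocytes, had 66.9, 86.9 and 82.3 CPM in the combined libraries, against 15.5, 22.04 and 16.2 CPM in the gefitinib libraries and 15.04, 14.3 and 12.3 CPM in the saline libraries (4.399-fold, adjusted p = 0.000241). Actg1, cytoplasmic γ-actin, had 282, 210.3 and 205 CPM in the combined libraries, against 78.8, 70.5 and 63.6 CPM in the gefitinib libraries. Anxa1, a phospholipid-binding protein that dampens inflammation, rose 4.78-fold, and Msn, moesin, which ties actin to the membrane, rose 2.16-fold. Several members were tubulins, and Tubb2a, a β-tubulin, had 247, 167 and 168 CPM in the combined libraries and 56.7, 28.6 and 42.7 CPM in the gefitinib libraries. Actins and tubulins have close paralogs, so the split of reads within these families is uncertain. Left out in turn, the libraries gave 22 to 27 higher members, and the muscle term gave 17. Vim, Actg1, Anxa1, Msn and Tubb2a were called under every alternative run.

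Krt8 and Krt18, the keratins of simple epithelia that hepatocytes also express, rose as well. Krt8 had 747, 646 and 609 CPM in the combined libraries, against 236, 196 and 217 CPM in the gefitinib libraries and 142, 122 and 102 CPM in the saline libraries (3.08-fold, adjusted p = 0.000504), and its partner Krt18 had 508, 428 and 396 CPM in combined and 226, 182 and 201 CPM in gefitinib libraries. The keratins of bile ducts were low, as Krt19 had 0.924, 0.351 and 0.566 CPM in the combined libraries and 0.180, 0.499 and 0.525 CPM in the gefitinib libraries (adjusted p = 0.666) and Krt7 0.440, 0.641 and 1.78 CPM in combined and 0.702, 0.499 and 0.630 CPM in gefitinib libraries (adjusted p = 0.551). Of the 19 tested biliary and progenitor genes, Krt8, Krt18 and Anxa4 were higher, Onecut1 was lower and 15 did not pass, with 2 higher and 0 lower with the muscle term. Cdkn1a, which encodes the cell cycle inhibitor p21, was among the largest rises, with 113, 104 and 179 CPM in the combined libraries, against 8.98, 9.69 and 7.99 CPM in the gefitinib libraries and 24.7, 39.9 and 74.3 CPM in the saline libraries (14.9-fold, adjusted p = 0.000688). The gefitinib libraries were thus the lowest of the 3 groups for this gene. Krt8, Krt18 and Cdkn1a were called under every alternative run.

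Targets of NRF2, the transcription factor that answers electrophiles and oxidants, were higher in part. Of 34 tested genes 11 rose and 1 fell, with a median log2 fold change of 0.35. Srxn1 (ENSMUSG00000032802, chromosome 2, 152105516 to 152109322), sulfiredoxin, which repairs oxidized peroxiredoxins, had 672, 235 and 218 CPM in the combined libraries, against 43.6, 48.3 and 38.7 CPM in the gefitinib libraries and 26.2, 28.1 and 28.7 CPM in the saline libraries. It rose 8.62-fold (log2 difference 3.11 ± 0.53, SE, adjusted p = 0.00172), and 5.20-fold without combined 1. Slc7a11, the cystine importer that feeds glutathione synthesis, had 19.9, 4.0001 and 4.45 CPM in the combined libraries, against 0.0360, 0.266 and 0.175 CPM in the gefitinib libraries, a fold of 58.2 with all libraries and 26.1 without combined 1. Abcc4, a pump that exports bile acids and organic anions into the blood, had 61.2, 23.9 and 24.02 CPM in the combined libraries and 2.34, 3.99 and 4.46 CPM in the gefitinib libraries, a fold of 10.1 with all libraries and 6.65 without combined 1. Of the 11 higher genes, 9 were highest in combined 1. The enzymes that make NADPH in the pentose phosphate pathway were higher in all combined libraries than in any gefitinib library. Pgd had 156, 80.4 and 83.7 CPM in combined and 29.04, 29.1 and 29.3 CPM in gefitinib libraries, and G6pdx had 14.02, 10.5 and 14.3 CPM in combined and 3.08, 4.81 and 4.13 CPM in gefitinib libraries. Sod2, the mitochondrial superoxide dismutase, was lower, with 139, 137 and 127 CPM in the combined libraries and 178, 168 and 182 CPM in the gefitinib libraries. Srxn1, Abcc4, Pgd and G6pdx were called under every alternative run, whereas Slc7a11 was not called with limma on log2(FPKM + 1) or the muscle term, and Sod2 was not called under 13 of the 20 alternatives, among them without any 1 combined or gefitinib library or saline 3. Higher NRF2 targets numbered 7 without gefitinib 1, gefitinib 2 or gefitinib 3, and 4 with the muscle term.

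The Srxn1 promoter (chr2:152105274-152105573, plus strand) is shown for its matches to both motifs. It holds AP-1 matches at 102 and 45 bases before the start and an antioxidant response element core on the other strand 28 bases after it.
Srxn1: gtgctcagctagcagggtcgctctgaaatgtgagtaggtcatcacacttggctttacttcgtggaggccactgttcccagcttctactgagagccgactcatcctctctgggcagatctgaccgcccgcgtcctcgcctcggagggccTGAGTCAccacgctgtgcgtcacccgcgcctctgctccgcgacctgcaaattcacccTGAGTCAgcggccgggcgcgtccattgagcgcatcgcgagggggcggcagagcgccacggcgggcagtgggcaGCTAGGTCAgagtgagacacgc

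The conjugating enzymes, which join glutathione, glucuronic acid or sulfate to foreign compounds, were split. Of 44 tested 4 rose, all of them glutathione transferases, and 7 fell. Gstm3 had 2299, 1086 and 1307 CPM in the combined libraries, against 116, 332 and 331 CPM in the gefitinib libraries and 36.1, 59.5 and 24.04 CPM in the saline libraries (6.02-fold, adjusted p = 0.0104). In FPKM, which is per length, it had 1762, 796 and 936 in the combined libraries and 72.8, 224 and 219 in the gefitinib libraries. The Gstm genes are near copies of each other, so their reads may be shared. Ugt2a3, a glucuronosyltransferase, had 83.7, 98.7 and 111 CPM in the combined libraries and 181, 149 and 176 CPM in the gefitinib libraries, and Gstk1, the mitochondrial and peroxisomal glutathione transferase, had 54.1, 68.7 and 67.3 CPM in combined and 104, 131 and 88.7 CPM in gefitinib libraries. Gstm3 and Ugt2a3 were called under every alternative run, Gstk1 under every one except the muscle term. The number of lower conjugating enzymes was 2 without combined 3 and 3 without combined 1, gefitinib 1 or gefitinib 3, and 2 rose and 2 fell with the muscle term, 8 and 13 with DESeq2. The number of higher ones was 1 without combined 1 or gefitinib 1 and 2 without combined 3, gefitinib 2 or saline 2.

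Many matrix genes were higher, with metalloproteases and fibrillar collagens both among them. Which cells these transcripts came from was not tested. Of 45 tested matrix and remodelling genes 20 rose and 0 fell. Mmp13 (ENSMUSG00000050578, chromosome 9, 7272514 to 7283331), the interstitial collagenase of mice, had 16.03, 14.8 and 9.34 CPM in the combined libraries, against 0.396, 0.816 and 0.455 CPM in the gefitinib libraries and 0.179, 0.231 and 0.0746 CPM in the saline libraries (23.98-fold, adjusted p = 0.000504). Adam8, a membrane protease of leukocytes, had 25.996, 29.5 and 28.4 CPM in the combined libraries and 1.42, 2.45 and 2.13 CPM in the gefitinib libraries. Serpinh1, the chaperone that folds collagen, had 15.1, 17.4 and 14.7 CPM in the combined libraries, against 5.11, 3.79 and 4.303 CPM in the gefitinib libraries and 10.8, 6.996 and 6.19 CPM in the saline libraries, and Sparc, a collagen-binding matrix protein, had 88.2, 97.1 and 98.5 CPM in combined, 39.1, 39.1 and 39.5 CPM in gefitinib and 96.6, 61.9 and 65.2 CPM in saline libraries. For both, the gefitinib libraries lay below the saline libraries as well as below the combined ones.

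Of the 20 collagen genes 7 rose and 2 fell, and each of the 7 that rose was highest in combined 2. Col3a1, of the fibrillar type III collagen, had 129, 175 and 136 CPM in the combined libraries, against 19.7, 30.02 and 29.1 CPM in the gefitinib libraries and 48.7, 25.3 and 21.7 CPM in the saline libraries. Col4a1, of the basement membrane, had 62.1, 67.6 and 63.6 CPM in the combined libraries and 23.98, 27.5 and 22.2 CPM in the gefitinib libraries, and shares its locus with Col4a2 on the other strand. Col18a1, the source of endostatin, fell, with 613, 675 and 569.7 CPM in the combined libraries and 1018, 744 and 957 CPM in the gefitinib libraries. Of the 25 stellate cell and fibroblast markers 5 rose, 4 of which are Vim and the collagens above, and 1 fell. The stellate marker Lrat, the enzyme that stores vitamin A, had 4.81, 4.05 and 3.74 CPM in the combined libraries and 5.38, 7.41 and 7.08 CPM in the gefitinib libraries (adjusted p = 0.0991), and Acta2, smooth muscle actin, had 3.47, 4.49 and 3.19 CPM in combined and 2.88, 0.766 and 0.787 CPM in gefitinib libraries (adjusted p = 0.352). Mmp13, Adam8, Serpinh1, Sparc, Col3a1 and Col4a1 were called under every alternative run, whereas Col18a1 was not called under 12 of the 20 alternatives, among them without combined 1, combined 2, combined 3, gefitinib 1 or gefitinib 3. Higher matrix genes numbered 10 without gefitinib 1 and 13 without combined 2, and 8 with the muscle term, which left 4 higher and 0 lower collagens and 4 higher stellate cell markers.

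The Mmp13 promoter (chr9:7272264-7272563, plus strand) holds 1 AP-1 match, 35 bases before the start.
Mmp13: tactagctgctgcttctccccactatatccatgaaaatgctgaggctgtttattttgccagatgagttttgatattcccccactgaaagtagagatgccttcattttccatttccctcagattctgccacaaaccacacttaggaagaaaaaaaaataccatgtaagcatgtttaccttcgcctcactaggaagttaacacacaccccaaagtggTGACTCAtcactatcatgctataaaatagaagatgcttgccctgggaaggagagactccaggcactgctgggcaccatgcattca

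Immediate early genes, which are switched on within minutes of growth or stress signals and encode the AP-1 proteins among others, were higher. Of 27 tested genes 14 rose and 0 fell, with a median log2 fold change of 1.54. Jund, an AP-1 subunit, had 175, 109 and 161 CPM in the combined libraries, against 46.4, 52.5 and 50.6 CPM in the gefitinib libraries and 46.5, 44.5 and 40.6 CPM in the saline libraries (2.98-fold, adjusted p = 0.000786). Jun had 50.7, 62.03 and 70.1 CPM in the combined libraries and 8.97, 20.4 and 13.1 CPM in the gefitinib libraries, and Fos had 9.22, 7.85 and 5.82 CPM in combined and 0.540, 0.616 and 0.840 CPM in gefitinib libraries. Rhob, a small GTPase induced early by stress, had 64.95, 53.6 and 65.02 CPM in the combined libraries and 20.003, 18.5 and 22.8 CPM in the gefitinib libraries. Jund, Jun, Fos and Rhob were called under every alternative run. With a library left out 11 to 17 members were higher, and 9 with the muscle term.

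Among genes of EGFR and MAP kinase signalling, the drug's own pathway, the calls fell mainly on feedback phosphatases and ligands. Of 33 tested genes 7 rose and 1 fell. The Spry, Spred and Etv genes of the list were not called. Spry4 had 2.26, 3.69 and 3.27 CPM in the combined libraries, against 1.28, 2.48 and 3.78 CPM in the gefitinib libraries and 8.45, 13.2 and 10.1 CPM in the saline libraries. Dusp6, the phosphatase that ERK induces and that switches ERK off, had 60.3, 41.9 and 40.7 CPM in the combined libraries, against 8.75, 12.5 and 13.5 CPM in the gefitinib libraries and 16.7, 22.4 and 18.1 CPM in the saline libraries (4.12-fold, adjusted p = 0.000786). Dusp5, a nuclear ERK phosphatase, rose 4.498-fold, and Tgfa, a ligand of EGFR, had 46.2, 34.4 and 31.6 CPM in the combined libraries and 14.9, 17.4 and 19.5 CPM in the gefitinib libraries. Egfr itself, the target of gefitinib, had 371, 429 and 606 CPM in the combined libraries, against 452, 697 and 636 CPM in the gefitinib libraries and 499, 270.3 and 365 CPM in the saline libraries, with overlapping groups and an adjusted p of 0.468. Erbb3, its partner receptor, fell, with 87.5, 85.3 and 90.7 CPM in the combined libraries and 141, 119 and 178 CPM in the gefitinib libraries. Dusp6, Dusp5 and Tgfa were called under every alternative run, whereas Erbb3 was not called under 9 of the 20 alternatives, among them without combined 1, combined 2, combined 3, gefitinib 1 or gefitinib 3. The higher count was 4 without combined 3 or gefitinib 1, and 4 with the muscle term.

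Many genes that answer glucocorticoids were higher in the combined group. Of 27 tested genes of glucocorticoid activation and response 12 rose and 0 fell, with a median log2 fold change of 1.51. Not called were, among others, Fkbp5 (1.24-fold, adjusted p = 0.640), Klf9 (1.06-fold, 0.745), Per1 (2.06-fold, 0.411) and Pck1 (1.21-fold, 0.692). Of the 12 that rose, several also stand in other lists here, among them Cdkn1a, Lcn2, Dusp1, Mt2, Bcl6, Igfbp1 and Tat. Zbtb16, a transcriptional repressor strongly induced by glucocorticoids, had 28.9, 32.3 and 32.1 CPM in the combined libraries, against 4.45, 6.17 and 5.16 CPM in the gefitinib libraries and 27.03, 55.9 and 28.6 CPM in the saline libraries (5.904-fold, adjusted p = 0.000857). Sgk1, a kinase that regulates ion transport, had 32.4, 37.5 and 56.1 CPM in the combined libraries, against 8.19, 14.4 and 12.1 CPM in the gefitinib libraries and 21.3, 19.1 and 22.5 CPM in the saline libraries. Tsc22d3, the leucine zipper protein GILZ, had 87.02, 199 and 154 CPM in the combined libraries, against 37.9, 58.2 and 47.03 CPM in the gefitinib libraries and 115, 104 and 112 CPM in the saline libraries. Thus for Zbtb16 the saline values were on the side of the combined values, and for Sgk1 they lay between the group means. Igfbp1, which binds insulin-like growth factors and is held down by insulin, had 148, 204 and 522 CPM in the combined libraries and 13.4, 51.6 and 42.4 CPM in the gefitinib libraries, and its fold of 8.14 was 4.92 without combined 3.

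The enzyme and receptors of the pathway did not pass. Hsd11b1, the hepatic 11β-hydroxysteroid dehydrogenase, had 319.7, 429 and 444 CPM in the combined libraries, against 544, 416 and 516 CPM in the gefitinib libraries and 543, 647 and 665 CPM in the saline libraries (adjusted p = 0.274). Nr3c1, the glucocorticoid receptor, had 44.1, 38.2 and 40.1 CPM in the combined libraries and 50.6, 49.8 and 55.7 CPM in the gefitinib libraries (adjusted p = 0.0716), and Nr3c2, the mineralocorticoid receptor, had 7.21, 5.45 and 7.39 CPM in combined and 9.96, 12.3 and 10.7 CPM in gefitinib libraries (adjusted p = 0.102). Zbtb16, Sgk1, Tsc22d3 and Igfbp1 were called under every alternative run. Of the 12 higher genes, 8 were highest in combined 3, and the count of higher genes was 7 without combined 3 or gefitinib 1, and 8 with the muscle term.

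Targets of p53 were higher in part. Of 28 tested genes 12 rose and 0 fell, with a median log2 fold change of 0.88. Mdm2, the ubiquitin ligase that degrades p53, had 63.96, 57.6 and 51.2 CPM in the combined libraries, against 29.2, 32.99 and 34.4 CPM in the gefitinib libraries and 29.6, 30.3 and 35.01 CPM in the saline libraries (1.79-fold, adjusted p = 0.00303). Gdf15, a secreted stress hormone that other stress pathways also induce, had 33.6, 36.96 and 58.2 CPM in the combined libraries and 6.21, 3.91 and 7.52 CPM in the gefitinib libraries, and Btg2, an antiproliferative protein, had 36.4, 32.1 and 42.7 CPM in combined and 5.29, 5.84 and 8.501 CPM in gefitinib libraries. Bax, the pore-forming effector of apoptosis, had 59.3, 45.8 and 58.3 CPM in the combined libraries and 29.1, 37.4 and 35.04 CPM in the gefitinib libraries. Several of these genes answer other signals too, and Cdkn1a, Btg2 and Gdf15 also stand in other lists here. Mdm2, Gdf15 and Btg2 were called under every alternative run, whereas Bax was not called without combined 1, combined 3, gefitinib 1 or gefitinib 3, or with the muscle term. Higher targets numbered 6 without gefitinib 3 and 7 without combined 1, combined 3 or gefitinib 1, and 6 with the muscle term.

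Cell death genes were higher in part. Of 32 tested 8 rose and 1 fell. Tnfrsf12a, the TWEAK receptor, had 48.9, 39.4 and 33.98 CPM in the combined libraries, against 6.46, 7.16 and 8.71 CPM in the gefitinib libraries (5.47-fold, adjusted p = 0.000200). Bcl2l1, the survival protein BCL-XL, had 56.04, 68.6 and 82.6 CPM in the combined libraries and 25.9, 21.7 and 25.05 CPM in the gefitinib libraries. Of 32 genes of the integrated stress and unfolded protein responses 8 rose and 2 fell, and Ddit3, the factor CHOP, had 20.1, 19.3 and 13.7 CPM in the combined libraries and 9.25, 8.99 and 9.22 CPM in the gefitinib libraries. Tnfrsf12a and Bcl2l1 were called under every alternative run, Ddit3 under every one except the muscle term. The higher counts were 4 without combined 1, gefitinib 1 or gefitinib 3 and 5 without combined 3 for cell death and 5 without gefitinib 3 for the stress responses, and 2 each with the muscle term.

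Inflammatory genes that rose were at low levels. Of 33 tested cytokine, receptor and NF-κB feedback genes 11 rose and 0 fell. Il1rn, the natural antagonist of the interleukin 1 receptor, had 30.8, 24.7 and 23.2 CPM in the combined libraries, against 4.11, 4.53 and 3.66 CPM in the gefitinib libraries and 3.41, 4.75 and 2.35 CPM in the saline libraries (6.395-fold, adjusted p = 0.000504). Tnfaip3, the NF-κB inhibitor A20, had 13.8, 18.8 and 13.8 CPM in the combined libraries and 3.403, 5.53 and 3.95 CPM in the gefitinib libraries, and Tlr2, a receptor of bacterial lipoproteins, had 11.4, 10.05 and 9.31 CPM in combined and 2.61, 3.54 and 3.78 CPM in gefitinib libraries. The cytokines themselves were near the detection limit, as Tnf had 0.689, 0.702 and 1.09 CPM in the combined libraries and 0.306, 0.516 and 0 CPM in the gefitinib libraries (adjusted p = 0.397) and Il1b 2.04, 1.08 and 1.13 CPM in combined and 1.12, 0.965 and 1.36 CPM in gefitinib libraries (adjusted p = 0.848). Lcn2, lipocalin 2, an acute phase protein that neutrophils also hold, had 774, 449 and 603 CPM in the combined libraries, against 60.3, 86.01 and 65.6 CPM in the gefitinib libraries and 4.14, 18.9 and 11.1 CPM in the saline libraries. Of the 30 tested genes of the acute phase list 5 were called, each of them higher, and 3 were called with the muscle term. Beside Lcn2 and Il1rn, those that rose were Cd14, the co-receptor of bacterial lipopolysaccharide (9.28-fold), Mt2, a metallothionein (2.92-fold), and Steap4, a metalloreductase (2.198-fold). Saa1, a serum amyloid A protein, had 230.3, 301 and 406 CPM in the combined libraries and 166, 195 and 316 CPM in the gefitinib libraries (adjusted p = 0.427), and Saa3 had 40.3, 33.8 and 59.97 CPM in combined and 11.6, 27.3 and 26.1 CPM in gefitinib libraries (adjusted p = 0.136), without overlap. Il1rn, Tnfaip3, Tlr2, Cd14 and Steap4 were called under every alternative run, Lcn2 under every one except the muscle term, whereas Mt2 was not called under 8 of the 20 alternatives, among them without combined 2, combined 3, gefitinib 1, gefitinib 2 or gefitinib 3. The count of higher inflammatory genes was 7 without combined 2, gefitinib 1 or gefitinib 3, and 6 with the muscle term.

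Chemokines and interferon-stimulated genes moved in both directions. Of 20 chemokines 6 rose and 2 fell. Cxcl10, an interferon-induced attractant of T cells, had 22.7, 20.5 and 6.86 CPM in the combined libraries and 3.24, 4.49 and 1.802 CPM in the gefitinib libraries, whereas Cxcl12, a chemokine made without stimulation by endothelial and stromal cells, had 178, 176 and 167 CPM in the combined libraries, against 318, 264 and 299 CPM in the gefitinib libraries and 391, 407 and 349 CPM in the saline libraries. Of 42 interferon-stimulated genes 10 rose and 2 fell. Oas1a, a sensor of viral RNA, had 21.7, 10.2 and 17.6 CPM in the combined libraries and 2.305, 3.78 and 3.97 CPM in the gefitinib libraries, but it is 1 of a family of near copies. Irgm2, a GTPase of the interferon γ response, had 29.7, 23.3 and 21.1 CPM in the combined libraries and 49.4, 46.9 and 49.2 CPM in the gefitinib libraries, and overlaps Igtp. Cxcl12 and Oas1a were called under every alternative run, Cxcl10 and Irgm2 under every one except the muscle term. The count of higher interferon-stimulated genes was 4 without combined 1, gefitinib 1 or gefitinib 2, 5 without combined 3 and 6 without gefitinib 3, 5 with the muscle term and 17 with DESeq2, and that of chemokines was 2 without gefitinib 3 and 3 without combined 1 or gefitinib 2, and 1 with the muscle term.

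Markers of other blood cells were mostly not called. The neutrophil list summed to 1006, 678 and 1032 CPM in the combined libraries, against 408, 375 and 369 CPM in the gefitinib libraries and 269.9, 312 and 330.4 CPM in the saline libraries, but Lcn2 made up most of the combined sums. Without Lcn2 the list summed to 232, 228 and 429 CPM in the combined libraries, against 347, 289 and 303 CPM in the gefitinib libraries, so that combined 1 and 2 lay below all gefitinib libraries and combined 3 above them. Lcn2 was the single higher call, Wfdc21 the single lower one, and 15 of 17 did not pass. The median log2 fold change of the 17 was nevertheless 1.57, and 0.69 with limma on log2(FPKM + 1), so the members leaned higher while the sum did not. S100a8 and S100a9, the calprotectin subunits, had 4.96, 1.65 and 32.05 CPM and 10.4, 2.35 and 64.7 CPM in the combined libraries, against 2.43, 5.63 and 5.74 CPM and 4.99, 10.8 and 8.76 CPM in the gefitinib libraries (adjusted p = 0.336 and 0.294). Of 23 T and NK cell genes Il7r, the interleukin 7 receptor, rose, with 9.501, 11.8 and 6.89 CPM in the combined libraries and 0.882, 0.816 and 0.315 CPM in the gefitinib libraries, while the T cell receptor subunit Cd3e had 0.367, 0.275 and 0.236 CPM in combined and 0.738, 1.68 and 0.752 CPM in gefitinib libraries (adjusted p = 0.104). Adipocyte-defining Adipoq was at 0 CPM in all 6 libraries and Plin1 at 0.0720 CPM at most, although Fabp4, which macrophages and endothelium share with adipocytes, rose 2.99-fold.

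On the lower side, transcription factors of hepatocytes were lower in part. Of 22 tested 7 fell and 1 rose. Cebpa (ENSMUSG00000034957, chromosome 7, 35119293 to 35121928), which drives hepatic metabolic genes and holds back proliferation, had 139.5, 135 and 104 CPM in the combined libraries, against 381, 292 and 287 CPM in the gefitinib libraries and 261, 281 and 262 CPM in the saline libraries. It was 2.54-fold lower with the combined treatment (log2 difference -1.34 ± 0.19, SE, adjusted p = 0.00107). Its relative Cebpb, which rises in regeneration and inflammation, went the other way, with 123, 129 and 222 CPM in the combined libraries and 54.1, 87.3 and 62.01 CPM in the gefitinib libraries. Nr1h4, the bile acid receptor FXR, had 117, 130.4 and 118 CPM in the combined libraries and 178, 205 and 162 CPM in the gefitinib libraries. Hnf4a, the master regulator of hepatocytes, had 634, 689 and 636 CPM in the combined libraries and 546, 463 and 496 CPM in the gefitinib libraries (adjusted p = 0.0524). Cebpa was called under every alternative run, whereas Cebpb was not called without gefitinib 1 or gefitinib 3, or with the muscle term, and Nr1h4 was not called under 9 of the 20 alternatives, among them without combined 1, combined 3, gefitinib 1 or gefitinib 2. The number lower was 2 without combined 3 or gefitinib 1 and 3 without combined 1, gefitinib 2 or gefitinib 3, 2 with the muscle term, and 4 with scaling by library size, which also called 5 higher.

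Fatty acid oxidation genes, many of them targets of PPARα, were lower in part. Of 41 tested 12 fell and 2 rose, with a median log2 fold change of -0.45. Slc27a2, which takes up and activates long fatty acids, had 674, 945 and 827 CPM in the combined libraries, against 1690.5, 1871 and 1653 CPM in the gefitinib libraries and 1776, 2047 and 1792 CPM in the saline libraries (2.13-fold lower, adjusted p = 0.00184). Cyp4a10, an ω-hydroxylase of fatty acids, had 165, 215 and 95.4 CPM in the combined libraries and 771, 1052 and 459 CPM in the gefitinib libraries. The 2 that rose were Ucp2, a mitochondrial carrier, with 71.98, 69.2 and 85.98 CPM in the combined libraries and 38.5, 38.8 and 33.8 CPM in the gefitinib libraries, and Pdk4, which shuts pyruvate dehydrogenase, with 23.96, 17.97 and 29.5 CPM in combined and 5.94, 4.24 and 6.14 CPM in gefitinib libraries. Of the 12 lower genes, 9 were lowest in combined 1. Slc27a2 and Ucp2 were called under every alternative run, whereas Pdk4 was not called without combined 1, combined 3, gefitinib 1, gefitinib 2 or gefitinib 3, or with the muscle term or no filter, and Cyp4a10 was not called without combined 1 or combined 3, or with the muscle term. The lower count was 2 without combined 1, combined 3 or gefitinib 1 and 7 without gefitinib 2 or gefitinib 3, and 17 without combined 2, 3 with the muscle term, 4 with scaling by library size and 24 with DESeq2.

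Bile acid genes of synthesis, conjugation and uptake were lower in part. Of 31 tested 7 fell and Abcc4, described above, rose. Cyp7a1, which catalyses the rate-limiting step from cholesterol to bile acids, had 78.7, 76.9 and 47.3 CPM in the combined libraries, against 189, 383 and 174 CPM in the gefitinib libraries and 60.9, 27.2 and 47.7 CPM in the saline libraries (3.68-fold lower, adjusted p = 0.0142), so that the gefitinib libraries were the highest of the 3 groups. Cyp8b1, which sets the share of cholic acid, had 234, 313 and 271 CPM in the combined libraries, against 682, 596 and 527 CPM in the gefitinib libraries and 468, 638 and 614 CPM in the saline libraries (2.21-fold lower). Slc10a1, the sodium-coupled transporter that takes bile acids up from the blood, had 210.1, 325 and 263 CPM in the combined libraries, against 625, 547 and 543 CPM in the gefitinib libraries and 501, 596 and 456 CPM in the saline libraries (2.15-fold lower, adjusted p = 0.00449). For these 2 genes the combined libraries lay below both other groups. Abcb11, the canalicular bile salt pump, had 308, 379.9 and 329 CPM in the combined libraries and 459, 389.5 and 464 CPM in the gefitinib libraries (adjusted p = 0.277). Cyp8b1 and Slc10a1 were called under every alternative run, whereas Cyp7a1 was not called without combined 3, or with the muscle term. The lower count was 4 without gefitinib 2, 3 with the muscle term, 4 with scaling by library size and 12 with DESeq2.

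**Figure D5:**
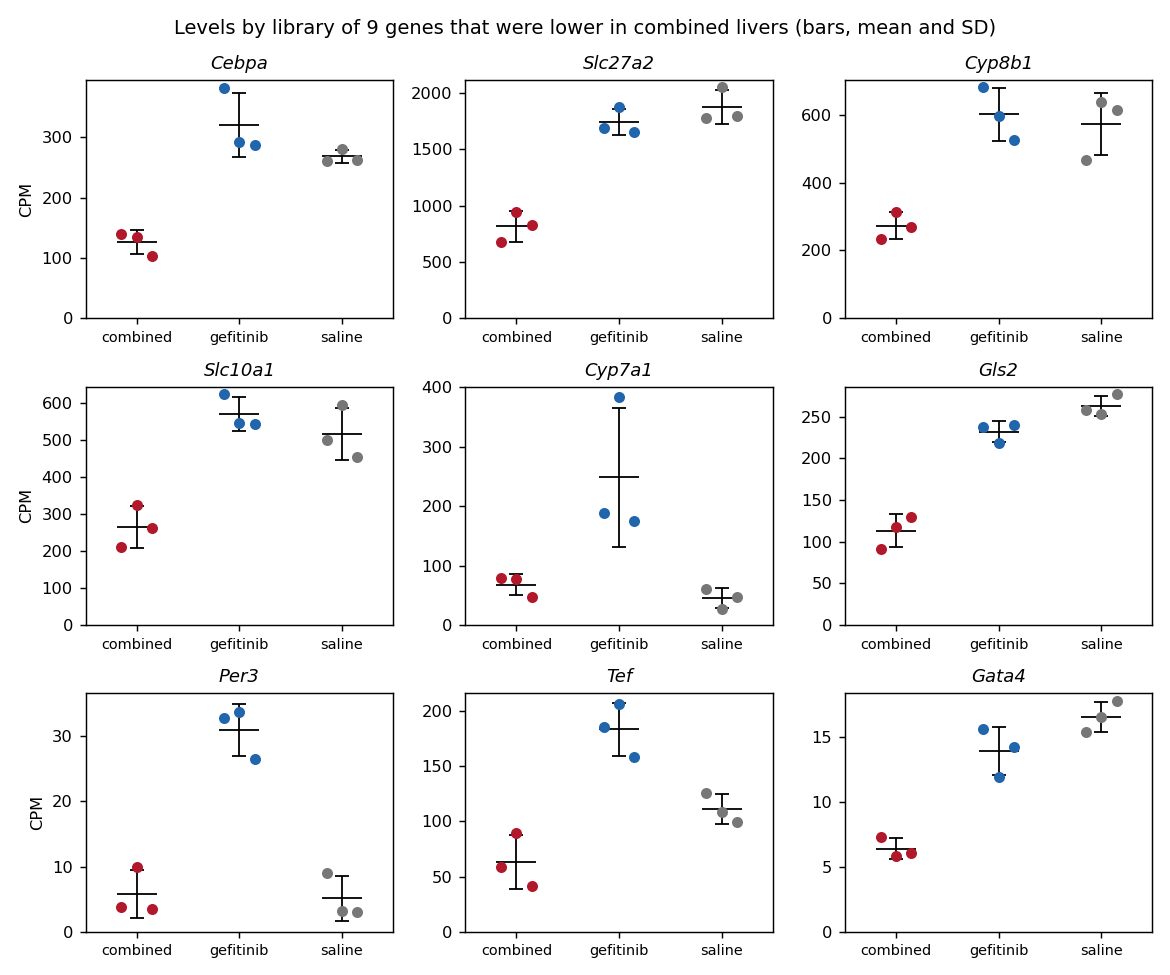
Points are the 3 libraries of the combined, gefitinib and saline groups and lines their means, in CPM, for 9 genes called lower in the combined group. All combined libraries lie below all gefitinib libraries in each panel, and for Cyp7a1 and Per3 the saline libraries lie among or below the combined ones.

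Periportal genes, which mark the hepatocytes around the portal vein, were lower in part, with a count that moved little between settings. Of 14 tested 5 fell and 0 rose, with 4 to 5 lower when a library was left out, 4 with the muscle term and 5 with scaling by library size. Gls2, which releases ammonia from glutamine for urea synthesis, had 91.2, 118 and 129.98 CPM in the combined libraries, against 238, 218 and 240.4 CPM in the gefitinib libraries and 258, 254 and 277 CPM in the saline libraries (2.05-fold lower, adjusted p = 0.00184). Hal, which starts histidine breakdown, had 144, 136 and 137 CPM in the combined libraries and 285, 229 and 298 CPM in the gefitinib libraries, and Fbp1, an enzyme of gluconeogenesis, had 439.7, 427 and 355 CPM in combined and 825, 786 and 821 CPM in gefitinib libraries. Gls2, Hal and Fbp1 were called under every alternative run. Pericentral genes gave 2 lower and 1 higher of 16, and none either way with the muscle term. Glul, the glutamine synthetase of the cells around the central vein, had 289.6, 593 and 609.7 CPM in the combined libraries and 533, 552 and 725 CPM in the gefitinib libraries (adjusted p = 0.578).

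Amino acid breakdown, gluconeogenesis and the respiratory chain were lower in part. Gls2 (2.05-fold lower) and Hal (1.95-fold lower), described above as periportal genes, are also among the lower genes of amino acid breakdown. Of 33 genes of the urea cycle and amino acid breakdown 7 fell and Tat rose, of 26 of gluconeogenesis and glycogen 6 fell and 2 rose, and of 33 nuclear-encoded respiratory chain genes 5 fell and 0 rose. Tat, tyrosine aminotransferase, which glucocorticoids induce, had 789, 1641 and 2050.0 CPM in the combined libraries and 353, 824 and 397 CPM in the gefitinib libraries, with overlapping groups. Gys2, the liver glycogen synthase, had 58.7, 94.7 and 70.4 CPM in the combined libraries and 139, 159 and 126 CPM in the gefitinib libraries. Ppp1r3b, which targets a phosphatase to glycogen, had 78.05, 116 and 106 CPM in the combined libraries, against 29.3, 47.03 and 44.97 CPM in the gefitinib libraries and 90.4, 127 and 124 CPM in the saline libraries. Sdhb, of respiratory complex II, had 118, 135 and 130.2 CPM in the combined libraries and 189.8, 178 and 179 CPM in the gefitinib libraries. Ppp1r3b was called under every alternative run, Sdhb under every one except the muscle term, whereas Tat was not called under 10 of the 20 alternatives, among them without combined 2, combined 3, gefitinib 1, gefitinib 3, saline 1, saline 2 or saline 3, and Gys2 was not called without combined 1, combined 3, gefitinib 1 or gefitinib 2, or with the muscle term. The lower counts for amino acid breakdown were 2 without combined 1 or gefitinib 1 and 4 without combined 2 or gefitinib 2. For gluconeogenesis they were 1 without combined 1 or gefitinib 1, 2 without combined 3 and 3 without gefitinib 2 or gefitinib 3. For the respiratory chain they were 1 without combined 1, combined 3 or gefitinib 1, 2 without gefitinib 3 and 3 without combined 2. With scaling by library size the lower counts of these lists were 4, 2 and 1, in that order. With limma on log2(FPKM + 1) they were 4, 3 and 2. With the muscle term they were 3, 1 and 0, and with DESeq2 12, 7 and 14, and the gluconeogenesis median, -0.16, turned positive with that term and with limma on FPKM.

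Clock genes differed on both sides. Of 21 tested 5 fell and 3 rose, with opposite arms of the clock on the 2 sides. Per3 (ENSMUSG00000028957, chromosome 4, 151003652 to 151044665), a member of the period family of clock repressors, had 3.798, 9.99 and 3.52 CPM in the combined libraries, against 32.8, 33.7 and 26.4 CPM in the gefitinib libraries and 9.04, 3.21 and 3.096 CPM in the saline libraries (5.37-fold lower, adjusted p = 0.0163), and its reads may be shared with Camta1, which overlaps it on the same strand. Dbp, a rhythmic activator that binds D-box sequences, had 3.12, 11.9 and 2.09 CPM in the combined libraries, against 132, 88.4 and 61.6 CPM in the gefitinib libraries and 26.5, 8.803 and 3.92 CPM in the saline libraries. Tef, another activator of that family, had 58.8, 89.2 and 41.5 CPM in the combined libraries, against 186, 206 and 158 CPM in the gefitinib libraries and 126, 108 and 99.6 CPM in the saline libraries. Arntl, the positive factor BMAL1, was on the opposite side, with 20.2, 12.2 and 19.4 CPM in the combined libraries, against 7.83, 6.07 and 9.83 CPM in the gefitinib libraries and 19.2, 22.99 and 26.2 CPM in the saline libraries, and Npas2, its partner, had 2.33, 1.77 and 3.67 CPM in combined, 0.774, 0.383 and 0.437 CPM in gefitinib and 2.77, 5.401 and 3.34 CPM in saline libraries. For Dbp, Per3, Arntl and Npas2 the saline values were nearer to the combined values than to the gefitinib values. The sources used here do not give the hour at which each tissue was taken. Tef was called under every alternative run, Npas2 under every one except the muscle term, whereas Per3 was not called without combined 1, combined 3 or gefitinib 1, or with the muscle term, and Dbp was not called without combined 1 or combined 3, and Arntl was not called without combined 1, combined 3, gefitinib 1 or gefitinib 2, or with the muscle term. The lower count was 2 without combined 1 or combined 3, 3 without gefitinib 1 and 8 without combined 2, 3 with the muscle term and 8 with DESeq2. The higher count was 1 without combined 1, combined 3 or gefitinib 1 and 0 with the muscle term. Without combined 2 the folds were 35.9 for Dbp, against 16.5 with all libraries, and 8.45 for Per3.

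The Per3 promoter (chr4:151044616-151044915, minus strand) holds 2 matches to the D-box letters TTATGNAA, 205 and 158 bases before the start.
Per3: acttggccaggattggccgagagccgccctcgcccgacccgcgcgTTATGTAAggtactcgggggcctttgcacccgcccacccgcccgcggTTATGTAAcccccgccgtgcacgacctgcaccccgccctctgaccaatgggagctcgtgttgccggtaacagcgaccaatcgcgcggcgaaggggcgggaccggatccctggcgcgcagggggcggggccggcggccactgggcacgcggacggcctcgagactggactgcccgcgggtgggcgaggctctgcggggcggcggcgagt

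Genes under growth hormone control were lower in part, with wide spread. Of 29 tested major urinary protein and growth hormone response genes 6 fell and 2 rose, with a median log2 fold change of -0.86. Igfals, which carries insulin-like growth factor in blood, had 42.7, 54.2 and 55.05 CPM in the combined libraries, against 127, 111 and 115 CPM in the gefitinib libraries and 176, 104 and 122 CPM in the saline libraries (2.33-fold lower, adjusted p = 0.00449). Bcl6, a repressor of growth hormone-induced genes, was on the opposite side, with 46.7, 46.96 and 45.3 CPM in the combined libraries, against 11.9, 8.94 and 13.7 CPM in the gefitinib libraries and 16.3, 28.8 and 16.003 CPM in the saline libraries. Socs2, a feedback inhibitor of growth hormone signalling, had 8.67, 9.74 and 20.1 CPM in the combined libraries and 46.3, 84.5 and 56.1 CPM in the gefitinib libraries. The 6 lower genes were all lowest in combined 1, and the Mup genes are near copies that may share reads. Igfals and Bcl6 were called under every alternative run, whereas Socs2 was not called under 12 of the 20 alternatives, among them without any 1 combined or gefitinib library or saline 3. The lower count was 2 without combined 3 or gefitinib 3 and 3 without combined 1 or gefitinib 1, 1 with the muscle term and 11 with DESeq2.

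Other abundant products of hepatocytes were mostly not called. Of 18 genes of this kind Apoa2 and Serpina1a fell, Tat rose and 15 did not pass, and with the muscle term 1 was lower and 0 higher. Apoa2, an apolipoprotein of high-density lipoprotein, had 4646, 4413 and 4476 CPM in the combined libraries, against 8728, 6795 and 5578 CPM in the gefitinib libraries (1.56-fold lower). Apoa5, which speeds the clearance of triglyceride from blood, was 2.15-fold lower, with 685, 963 and 1004 CPM in the combined libraries and 1859.6, 2030.1 and 1802 CPM in the gefitinib libraries. Of 46 complement and coagulation genes 6 fell and 2 rose. F7, coagulation factor VII, had 84.2, 83.01 and 87.4 CPM in the combined libraries and 131, 122 and 128 CPM in the gefitinib libraries, while Plaur, the urokinase receptor of leukocytes, had 8.77, 6.99 and 5.73 CPM in combined and 0.738, 1.05 and 0.192 CPM in gefitinib libraries. Among 45 P450 enzymes of foreign compounds 4 fell and 2 rose. Cyp2e1, the ethanol-inducible enzyme, had 2338, 4065 and 4479.7 CPM in the combined libraries and 7005, 6775 and 6471 CPM in the gefitinib libraries, and Cyp1a2, a target of the aryl hydrocarbon receptor, had 1208, 1011 and 1320.0 CPM in combined and 528, 511 and 791 CPM in gefitinib libraries. F7 was called under every alternative run, Apoa5 and Plaur under every one except the muscle term, whereas Cyp2e1 was not called under 11 of the 20 alternatives, among them without combined 1, combined 2, gefitinib 1, gefitinib 2, gefitinib 3 or saline 2, and Cyp1a2 was not called under 9 of the 20 alternatives, among them without combined 1, combined 2, combined 3, gefitinib 1, gefitinib 2 or saline 3, and Apoa2 was not called under 11 of the 20 alternatives, among them without combined 1, combined 2, combined 3, gefitinib 1 or gefitinib 2. The count of lower complement and coagulation genes was 2 to 4 with any library left out, 1 with the muscle term and 13 with DESeq2. That of lower P450 enzymes was 1 without combined 1 or gefitinib 3 and 2 without combined 2, combined 3, gefitinib 1 or gefitinib 2, 2 with the muscle term and 8 with DESeq2, and with the muscle term 0 were higher.

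Sinusoidal endothelial genes were lower in part. Of 27 tested markers 9 fell and 0 rose, and their summed level was 166, 239 and 256 CPM in the combined libraries, against 316, 322 and 304 CPM in the gefitinib libraries and 681, 624 and 775 CPM in the saline libraries. Gata4, the transcription factor that gives these cells their identity, had 7.302, 5.83 and 6.03 CPM in the combined libraries, against 15.6, 11.9 and 14.2 CPM in the gefitinib libraries and 15.4, 16.5 and 17.7 CPM in the saline libraries (2.18-fold lower, adjusted p = 0.00234). Fcgr2b, their receptor for immune complexes, had 8.87, 12.7 and 12.8 CPM in the combined libraries, against 20.9, 19.9 and 22.4 CPM in the gefitinib libraries and 56.2, 43.96 and 49.03 CPM in the saline libraries. Dnase1l3, a secreted nuclease, had 4.25, 6.703 and 8.24 CPM in the combined libraries, against 16.98, 10.5 and 14.2 CPM in the gefitinib libraries and 43.9, 39.9 and 49.8 CPM in the saline libraries. For Fcgr2b and Dnase1l3, saline was highest and the combined group lowest, with no overlap between the groups. Of the 9 lower genes, 8 were lowest in combined 1. Gata4 was called under every alternative run, Fcgr2b under every one except the muscle term, whereas Dnase1l3 was not called without combined 2, gefitinib 1 or gefitinib 3. The lower count was 3 without gefitinib 1 or gefitinib 3 and 5 without combined 1 or gefitinib 2, and 2 with the muscle term.

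Red blood cell transcripts were lower as well. Of 9 tested 5 fell, and the list summed to 596, 603 and 362 CPM in the combined libraries, against 2005, 1266 and 883 CPM in the gefitinib libraries and 861, 672 and 967 CPM in the saline libraries. Hba-a1, an α-globin with a near-identical copy, had 212, 201 and 135 CPM in the combined libraries and 665, 437 and 337 CPM in the gefitinib libraries, with saline libraries at 237, 192 and 297 CPM. The part of blood left in the tissue in other results was not tested. Hba-a1 was called under every alternative run. The lower count was 1 without combined 1, combined 2 or gefitinib 1 and 3 without combined 3, gefitinib 2 or gefitinib 3, and 3 with the muscle term.

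Several large groups gave few or no calls. edgeR called no gene among 28 ribosomal proteins, 26 proteasome subunits or 15 mitochondrially encoded transcripts, with median log2 fold changes of 0.28, -0.10 and -0.25. At an unadjusted p under 0.05 there were 12 ribosomal protein genes, all higher, 0 proteasome subunits and 6 mitochondrially encoded transcripts, all lower. DESeq2 called 5 ribosomal protein genes higher and 5 mitochondrially encoded transcripts lower, limma 8 ribosomal protein genes higher, and with scaling by library size 4 of them were called higher and the proteasome median turned positive. Of 28 cholesterol synthesis genes Dhcr7, which makes the last step to cholesterol, was the single call, with 61.1, 52.5 and 77.6 CPM in the combined libraries and 27.2, 23.1 and 34.2 CPM in the gefitinib libraries, although the median log2 fold change was 0.42 and 4 were called higher with scaling by library size or DESeq2, 5 or 7 with limma and none with the muscle term. Of 38 cell cycle and replication genes 5 rose and 2 fell, with 2 and 0 with the muscle term, 3 without gefitinib 1 for the higher ones and 11 of those with DESeq2. Mcm6, a subunit of the replicative helicase, had 11.4, 11.9 and 15.8 CPM in the combined libraries and 5.31, 5.43 and 6.66 CPM in the gefitinib libraries, while the mitotic gene Mki67 had 11.5, 10.2 and 18.7 CPM in combined and 1.89, 7.79 and 7.63 CPM in gefitinib libraries (adjusted p = 0.138). Dhcr7 and Mcm6 were called under every alternative run except the muscle term. Of 45 transporters 6 rose and 7 fell, 4 and 2 with the muscle term and 8 and 11 with DESeq2, and Slc47a1, an exporter of organic cations called under every alternative run, had 80.4, 98.3 and 78.6 CPM in the combined libraries and 157, 168 and 133 CPM in the gefitinib libraries.

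The largest changes of all included genes with no place in the lists. Igsf23, an immunoglobulin superfamily gene, had 35.6, 25.6 and 20.04 CPM in the combined libraries, against 0.396, 0.183 and 0.0700 CPM in the gefitinib libraries and 9.56, 3.65 and 12.6 CPM in the saline libraries. Its fold of 125 (adjusted p = 0.000504) rests on a few reads in the gefitinib libraries and was 209 without gefitinib 1. Eef1a2, an elongation factor of muscle and nerve, had 8.28, 9.89 and 8.65 CPM in the combined libraries and 1.404, 0.133 and 0.385 CPM in the gefitinib libraries, a fold of 13.97 with all libraries and 34.4 without gefitinib 1, the library with muscle transcripts. Clec2h, a C-type lectin gene, had 2.33, 1.04 and 2.83 CPM in the combined libraries, against 16.9, 12.4 and 22.4 CPM in the gefitinib libraries and 32.6, 19.9 and 10.8 CPM in the saline libraries (8.33-fold lower). Hamp2, a paralog of the iron hormone hepcidin, had 2.38, 2.14 and 2.83 CPM in the combined libraries, against 25.4, 8.24 and 21.4 CPM in the gefitinib libraries and 21.5, 45.1 and 42.5 CPM in the saline libraries (7.48-fold lower). Igsf23, Eef1a2, Clec2h and Hamp2 were called under every alternative run.

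Over all promoters, the letters searched were not rare. AP-1 letters stood in 8.88% of 687 promoters of higher genes and 6.40% of 547 promoters of lower genes, against 5.40% of 12157 promoters of tested genes and 7.93% of all 27025 in the RefSeq table. The antioxidant response element core stood in 17.3% and 11.3% of the promoters of higher and lower genes, against 14.5% of those of tested genes and 12.5% of all. The E-box stood in 8.44% and 10.8%, against 9.69% and 7.24%, and the D-box in 1.60% and 1.83%, against 2.21% and 3.52%. Both strands were searched, an AP-1 match and an antioxidant response element core can overlap, and 143 of the 186 named genes had a promoter in the table. A match describes letters in this window and is no binding site, and no test was made of these shares.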

How the data were processed

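Liver RNA of 9 mouse libraries was sequenced. The labels' protocols name the RNeasy mini plus kit for extraction and a SMARTER mRNA-Seq kit for the libraries. The submitters' processing notes name GRCm38 and mm10, which are the same assembly. No aligner, counting tool or strand setting is stated in the sources used here, so reads of overlapping genes cannot be assigned with certainty. Counts per gene and library are whole numbers that the authors deposited without normalisation, judged from the file headers and the values. FPKM values per gene and library were computed by the authors, per the file headers. Each of the 18 value columns could be assigned to 1 library by its name. Within a group, libraries differed far beyond sampling noise (chi-square over degrees of freedom 74.8 to 155), and each counted as 1 replicate.

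Counts were fitted with edgeR 4.0.16 in R 4.3.3, after filterByExpr and TMM at their defaults, with 1 mean per group over all 9 libraries, which leaves 6 residual degrees of freedom. That left 18113 genes tested and 9832 untested. The contrast of combined and gefitinib was tested by the two-sided quasi-likelihood test, and p-values were adjusted by Benjamini-Hochberg across the tested genes. Alternatives were limma 3.58.1 on log2(FPKM + 1) and log2(FPKM + 0.1), DESeq2 1.42.0, other filters and scalings, a fit of the 6 libraries alone, the replicate number as a block, a muscle term (an indicator for the combined libraries and gefitinib 1), muscle genes left out, and each library left out. The tests were checked on simulated counts.

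The gene lists (58, with 1370 genes tested) and the genes described were chosen with earlier results of these data known, so lists are given by counts and medians with no test. Genes were named by a rule. It took called genes with non-overlapping values, an established symbol and, in the higher group, at least 1 FPKM on average, and among them the 15 largest rises and falls and the 10 largest rises and falls in CPM. It added up to 4 called genes per list, by smallest adjusted p, and Egfr, Hsd11b1, Nr3c1 and Nr3c2. The text gives a selection of these, and list members outside the rule were named after their values were seen. Promoters are from RefSeq, GRCm38.p6. Python 3.11.15 with matplotlib 3.10.9 drew the figures.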

Additional observations from a re-analysis of the deposited data

How the results depend on the processing

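Of the 1644 called genes, all kept their direction in every alternative in which they were tested. Counts of calls moved by more than 1.5 times in one or both directions with DESeq2 (2744, of which 1423 higher and 1321 lower), the muscle term (516, 294 higher and 222 lower), the replicate number as a block (1028, 607 higher and 421 lower), no filter on low counts (1092, 634 higher and 458 lower), scaling by library size (1513 higher and 380 lower), limma on log2(FPKM + 0.1) (1664 higher and 400 lower) and on log2(FPKM + 1) (1851 higher and 406 lower), and a mean of at least 5 FPKM, which tests fewer genes (564 higher). The muscle term leaves gefitinib 1 as the single gefitinib library in the contrast, and for the others the cause was not tested. Median-ratio scaling gave 1645 called genes, the 6 libraries alone 1459 and muscle genes left out 1668. Leaving out 1 library gave 751 to 1497 called genes, 470 to 845 higher and 281 to 652 lower, with fewer samples in each fit.

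Deviations of same-numbered libraries of different groups had correlations from -0.0756 to 0.0716, against -0.0603 to 0.0634 for libraries with different numbers. With 3 libraries per group, these values cannot show whether the numbers mark a shared batch. Of the 182 named genes called, 90 were called in every setting that tested them. The muscle term left 83 of them uncalled, the absence of gefitinib 1 52 and that of combined 1 43. Of the 4749 tested genes under 1 CPM 1.31% were called, against 12.2% of the 6766 between 10 and 100 CPM, and a low gene not called here is not shown to be unchanged.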

Other observations

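The pathway names in the deposited table gave a view outside the lists above, read after the data had been seen. Of the 191 pathways with at least 20 tested members, the breakdown of valine, leucine and isoleucine had the largest share of lower genes, with 16 of 46 lower (34.8%) and 1 higher in the combined group, against 4.11% lower and 4.96% higher over all tested genes. The 16 included Bcat2, which removes the amino group, Bckdha, of the complex that commits the carbon skeletons to breakdown, and Ivd and Mccc2 of the leucine branch. The peroxisome pathway had 25 of 81 genes lower (30.9%) and 0 higher, with the import factor Pex26, bile acid steps (Baat, Hsd17b4) and fatty acid oxidation enzymes (Acaa1a, Ech1) among them. Glycine, serine and threonine metabolism had 10 of 39 lower (25.6%) and 0 higher, with Gnmt, Shmt1 and Amt of one-carbon metabolism. These pathways share members with each other and with the fatty acid oxidation list.

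On the higher side, osteoclast differentiation had the largest share, 31 of 108 (28.7%) with 2 lower, and held Spi1, the myeloid transcription factor PU.1, with Fc receptors and AP-1 subunits. The phagosome pathway had 38 of 143 higher (26.6%) and 1 lower, with the oxidase subunits Cybb, Cyba and Ncf4, integrins, tubulins and pump subunits. Oxidative phosphorylation showed 7 higher and 5 lower of 123. The 7 higher were all subunits of the proton pump of lysosomes, such as Tcirg1 and Atp6v0d2, and the 5 lower were subunits of the respiratory chain and its ATP synthase. Ferroptosis had 8 of 38 higher, among them Slc7a11, Gclc and Gss of glutathione supply, and 3 lower.

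Of 3860 tested genes without a protein-coding transcript, 98 were lower (2.54%) and 30 higher (0.777%) in the combined group, against 4.54% lower and 6.10% higher of the 14253 genes with one.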
